A study of Mus musculus with 12 samples.

Results

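The genes described here are mouse zinc finger genes whose symbols begin with Zfp or Zbtb followed by a digit, followed in dendritic cells after lipopolysaccharide (LPS). They were taken from the probes of the array that match a RefSeq accession, leaving out Zfp36, Zfp36l1 and Zfp36l2, whose products are RNA-binding proteins of another zinc finger class. Of 298 such genes matched, 216 were kept among 11095 genes tested, namely 188 Zfp genes of 264 and 28 Zbtb genes of 34. To be kept, a gene needed a probe whose Cy5 signal the scanner software marked as well above background on every array of some group. The set was chosen by measured values, the changes at 1 h of LPS against unstimulated cells, in which several members stood lower. Values at 1 h, and counts of genes passing a threshold there, are therefore a description. They do not serve as a test of the set. One member, Zbtb8os, meets the symbol rule by name only, since it encodes a tRNA-ligase cofactor named for its position on the opposite strand of a Zbtb gene.

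Most Zfp genes encode proteins with arrays of C2H2 zinc fingers that read DNA sequence. Many of these also carry a KRAB domain, which recruits the co-repressor Trim28 and the histone methyltransferase Setdb1, and a large part of their known work is silencing of transposable elements. Zbtb proteins pair C2H2 fingers with a BTB domain, through which they form dimers and recruit co-repressors such as Ncor1. In blood cells this family includes lineage regulators, among them Zbtb46, a marker of classical dendritic cells, and Zbtb7b, which directs the CD4 T cell lineage. A few genes with Zfp symbols encode proteins that act on RNA, ribosomes or the spindle and not on DNA.

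The groups were, in order of time, unstimulated cells (0 h) and cells after 1, 6 or 24 h of LPS at 100 ng/ml, with 3 arrays each. All groups shared the same origin: mouse marrow from which B and T cells had been depleted, cultured over 5 days in 10 ng/ml of GM-CSF plus 5 ng/ml of IL-4. No sort before RNA extraction is named, and the labels used here state neither strain nor age nor genotype of the mice. The letters A, B and C of the labels name 3 biological replicates per group. Each sample was labelled with Cy5 and set against the same Universal mouse reference in Cy3, so every level below is a log2 ratio of sample to reference for 1 probe. Such levels compare samples and not genes. In these bulk samples fewer cells of a type and less RNA per cell cannot be told apart.

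The share of probes with Cy5 signal well above background ran between 48.1 and 57.6% over the 12 arrays, and no spot was saturated. The arrays lay on 4 slides: the 3 unstimulated arrays and the 1 h array A on slide 1, the B arrays of 1 h and 24 h on slide 2, and the remaining 6 h and 24 h arrays with 1 h array C on slides 3 and 4. All 12 dendritic cell markers were above the filter, Itgax, H2-Ab1 and Cd74 among them, but Flt3 passed it through 24 h only. Of 10 macrophage and monocyte markers 6 were above it, and of 7 B cell and 8 T and NK cell markers, 3 and 2. The mean log2 ratio of the 6 macrophage and monocyte markers was 1.41 to 1.69 in unstimulated cells and 2.28 to 2.66 at 1 h. At 6 h it was 2.13 to 2.19, and at 24 h 1.40 to 1.57. Neutrophil genes were also present and changed with time. The mean log2 ratio of 7 neutrophil markers was 3.16 to 3.62 in unstimulated cells, 1.94 to 2.62 at 1 h, 1.08 to 1.94 at 6 h and 1.00 to 1.94 at 24 h, with Elane not above the filter and Ly6g on no matched probe. The mean of 11 genes of dividing cells was -0.90 to -0.68 in unstimulated cells, -2.48 to -1.08 at 1 h, -3.24 to -1.88 at 6 h and -3.29 to -2.84 at 24 h. Their part in the values below was not tested.

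Regulatory sequence was examined first, since it shows what part of the set has in common apart from the protein fold. RefSeq promoter windows of the GRCm38.p6 build, 250 bases before to 50 bases after a start site, were found for 186 of the 216 members. An 11-base motif of the ZNF143 type, searched on either strand and shown in capitals in the sequences printed next, lay in a window of 23 members, or 12.4%. Over all 8972 genes tested that had a window the share was 2.28%, and over all 27025 genes of the promoter table it was 1.13%. The motif was chosen after the members' promoters had been read, and it was 1 of 12 searched. All 23 were Zfp genes (14.3% of 161), against 0 of 25 Zbtb genes, and 12 of the 23 lay on chromosome 7, where 56 members are located. Members had 1.31 windows each on average and all genes 1.28.

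Matched stretches of 30 bases are shown for members described below and for neighbours on chromosome 7. Each is written 5′ to 3′ on the strand that reads the motif, which is in capitals and has any base at its sixth position. The flanks are alike in part. Every stretch has a t directly after the capitals. In Zfp180, Zfp112, Zfp111, Zfp108, Zfp93 and Zfp273 the letters ttct stand directly before the capitals. The stretches lie at chr7:24081865-24081894 on the plus strand for Zfp180, chr7:24112162-24112191 on the plus strand for Zfp112, chr7:24208193-24208222 on the minus strand for Zfp111, chr7:24254661-24254690 on the plus strand for Zfp108 and chr7:24270337-24270366 on the plus strand for Zfp93. Those of Zfp14 and Zfp566 lie at chr7:30051389-30051418 on the plus strand and chr7:30090565-30090594 on the plus strand. Those of Zfp273 and Zfp692 lie at chr13:67813740-67813769 on the plus strand and chr11:58307013-58307042 on the minus strand.
Zfp180: gagagttctGGGAATTGTAGttccattgag
Zfp112: gaaaattctGGGAAATGTAGttcatgaccc
Zfp111: tagcattctGGGAAATGTAGtcccaaaaga
Zfp108: tctcgttctGGGAAATGTAGtcccagaaaa
Zfp93: aggaattctGGGAATTGTAGttccaacgcc
Zfp14: agaggcctgtGGGAAATGTAGtccatggtg
Zfp566: ggagccctctGGGAAATGTAGtcagtccga
Zfp273: tagacttctGGGAAATGTAGtttctctctg
Zfp692: aaagcctgccGGGAATTGTAGttagcctta

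Members with the motif are set beside members without it as a description. At 1 h the median log2 change was -0.20 in the 23 members with it and -0.21 in the 163 without. At 6 h the medians were 0.17 and -0.02, and at 24 h they were 0.06 and 0.02, in the same order. Among the genes printed, Zfp180 stood at 0.87 at 6 h and Zfp566 at -0.54. Zfp143, which encodes the mouse ZNF143 protein and is itself a member, changed by -0.08 at 1 h, by 0.29 at 6 h (adjusted p = 0.0775) and by 0.42 at 24 h (adjusted p = 0.0138, limma).

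The other motifs differed by fewer percentage points between members and all genes tested. CCAAT lay in 51.6% of member windows and 43.4% of all, TTCNNNGAA in 15.6% and 8.50%, CCGGAAG in 24.2% and 19.2%, and CACGTG in 6.99% and 11.4%. The interferon-response element (ISRE) lay in 2.15% and 4.02%, and an NF-kB-type site in 1.61% and 0.568%. For the YY1-type motif the shares were 3.23% and 2.24%, for the NRF1-type motif 3.23% and 2.10%, and for TGACGTCA 3.76% and 3.26%. TATAAA lay in 6.99% and 10.2%, and TGANTCA in 4.30% and 7.12%. All motifs were counted on both strands, and shorter ones can overlap longer ones. The median count of CG pairs per window was 17 in members and 19.7 over all genes.

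At 1 h of LPS the members as a group stood below unstimulated cells. The median member minus the median of all genes was -0.20, -0.38 and -0.31 on the 1 h arrays A, B and C. In unstimulated cells the same difference was -0.04, -0.03 and -0.03. All 3 arrays at 1 h were lower than all 3 unstimulated arrays, and the array on slide 2 was the lowest. At 6 h the difference was -0.01, -0.03 and -0.06, and at 24 h it was -0.0039, 0.02 and 0.02, so the later arrays lay near the unstimulated ones. Within slide 1, where 1 h array A stands beside the unstimulated arrays, the median change of members minus that of all genes was -0.18, against -0.23 over all arrays. Between 6 h and 1 h the median change of members was 0.22 and that of all genes -0.09.

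**Figure D1:**
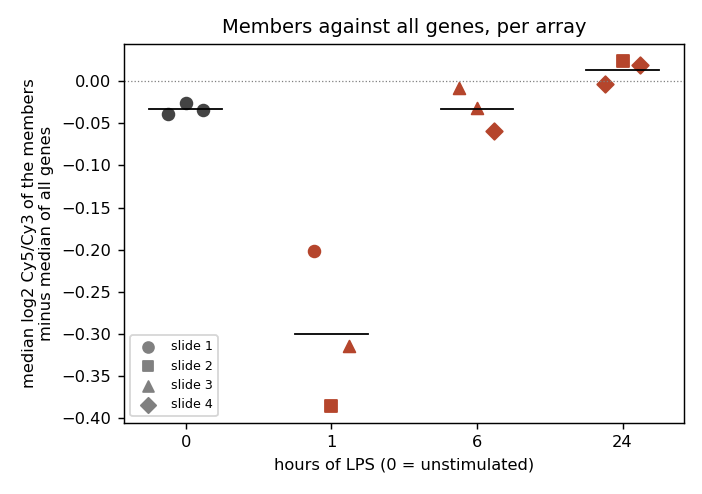
Median log2 Cy5/Cy3 of the 216 members minus the median of all 11095 genes, 1 point per array, by hours of LPS, with the slide as marker shape and the group mean as a line. The 1 h arrays lie between -0.38 and -0.20, below the other 9 arrays, which lie between -0.06 and 0.02.

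By single genes, 166 of 216 members had a log2 change below 0 at 1 h, or 76.9%, while over all genes tested it was 47.6%. At a threshold of 0.05 on limma's p, adjusted by Benjamini and Hochberg's method across the 11095 genes, 38 members were called at 1 h, 2 higher and 36 lower, where 7.44% of all genes were called, 4.05% higher and 3.39% lower. The groups did not overlap, with the 1 h arrays lower, for 92 members, where the share over all genes was 16.5%, and with the 1 h arrays higher for 16 members, where it was 14.2%. These counts describe the contrast by which the set was chosen. Of the 36, 9 were lower by at least 2-fold, and of the 376 genes called lower over all 11095 tested, 64 were. The count of members called was 14 with slide as a block, 21 without unstimulated array A, 22 without unstimulated array B and 23 without 1 h array B. Without a filter on low values it was 39, and it was 13, all lower, with median centring in place of loess. Over all genes 449 were called higher and 376 lower. With slide as a block these all-gene counts were 170 and 55, and with median centring 179 and 46.

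**Figure D2:**
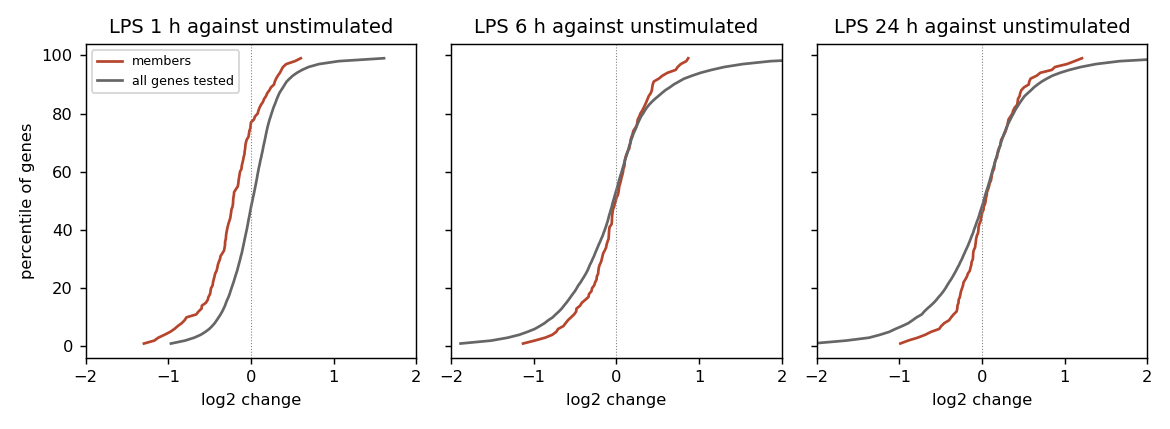
Percentiles of the log2 change against unstimulated cells at 1, 6 and 24 h for the 216 members and for all 11095 genes tested; the 6 h and 24 h axes leave out changes beyond 2 either way. The members' curve lies left of the other at 1 h and crosses it at 6 h and 24 h, where it is steeper.

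Zfp82 had the lowest change at 1 h. Its log2 ratio was 0.86, 0.73 and 0.70 unstimulated, -0.38, -0.94 and -0.59 at 1 h, 0.01, -0.13 and 0.27 at 6 h and 0.70, 0.24 and 0.78 at 24 h, so the 1 h arrays were the lowest of all groups and 24 h arrays A and C lay near the unstimulated ones. The log2 change was -1.40 at 1 h (SE 0.17). Zbtb1, which is needed for lymphocyte development, was at 0.82, 1.38 and 0.48 unstimulated, -0.34, -0.77 and -0.26 at 1 h, -0.21, 0.04 and -0.08 at 6 h and 0.35, 0.19 and 0.31 at 24 h. Its change was -1.35 at 1 h (SE 0.20), -0.98 at 6 h (adjusted p = 0.00199) and -0.61 at 24 h (adjusted p = 0.0291), with no overlap with unstimulated cells at any time. At 6 h the call of Zbtb1 was lost both with median centring and with slide as a block, at adjusted p = 0.058 and 0.114.

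Zfp273, one of the genes with the 11-base motif, was low at 1 h only among the times sampled. It stood at 0.11, 0.23 and 0.20 unstimulated, -0.84, -1.07 and -0.96 at 1 h, 0.07, 0.20 and 0.14 at 6 h and 0.19, 0.20 and -0.05 at 24 h. Its probe was well above background on 1 of the 3 arrays at 1 h and on all arrays of the other groups. The change was -1.13 at 1 h (SE 0.11), and at 6 h and 24 h it was -0.04 and -0.07, with a second probe at -0.95, 0.03 and 0.06 for the same times.

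Zfp472 stood at 0.46, 0.47 and 0.42 unstimulated, -0.84, -0.97 and -0.71 at 1 h, 0.04, -0.07 and -0.10 at 6 h and 0.13, -0.27 and -0.67 at 24 h, a change of -1.29 at 1 h and -0.49 at 6 h. Zfp12 was at -0.75, -0.65 and -0.70 unstimulated, -1.63, -2.06 and -1.93 at 1 h, -1.61, -1.41 and -1.44 at 6 h and -0.81, -1.09 and -0.99 at 24 h, with changes of -1.17 and -0.79. Zfp61 was at 1.06, 0.91 and 0.92 unstimulated, 0.03, -0.23 and -0.22 at 1 h, 0.73, 0.73 and 0.93 at 6 h and 1.40, 1.27 and 1.24 at 24 h. For Zfp61 the change was -1.10 at 1 h and 0.34 at 24 h, where the arrays lay above the unstimulated ones. The other members among the 12 lowest were Zfp770 (-1.15), Zfp322a (-1.06), Zfp7 (-1.03), Zfp955a (-0.998) and Zfp367 (-0.97). Second probes gave smaller changes at 1 h for Zfp61, at -0.54, and for Zfp955a, whose 2 other probes were at -0.36 and -0.19. Zfp446 also had a low mean change of -1.29, but its unstimulated arrays were at -0.14, 2.68 and -0.28, so the value rests on array B, and it was not called at any time.

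Few members stood higher at 1 h. Zfp819 led them with 1.07 (SE 0.29) and is described below. Zfp617 was the other member called, with 0.06, 0.03 and -0.13 at 1 h against -0.49, -0.43 and -0.42 in unstimulated cells, a change of 0.43, and 0.14 on a second probe. Zfp622, whose yeast counterpart acts in maturation of the large ribosomal subunit, was at 0.97, 0.91 and 0.50 at 1 h against 0.29, -0.20 and 0.36 in unstimulated cells (0.64). Zfp982, Zfp114 and Zfp263 had changes of 0.61, 0.57 and 0.54, and in each the highest of the 3 arrays was B, on slide 2. Within slide 1 these changes were 0.28, -0.11 and 0.19. Zfp27 (0.51) and Zbtb46 (0.42) complete the 8 highest.

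**Figure D3:**
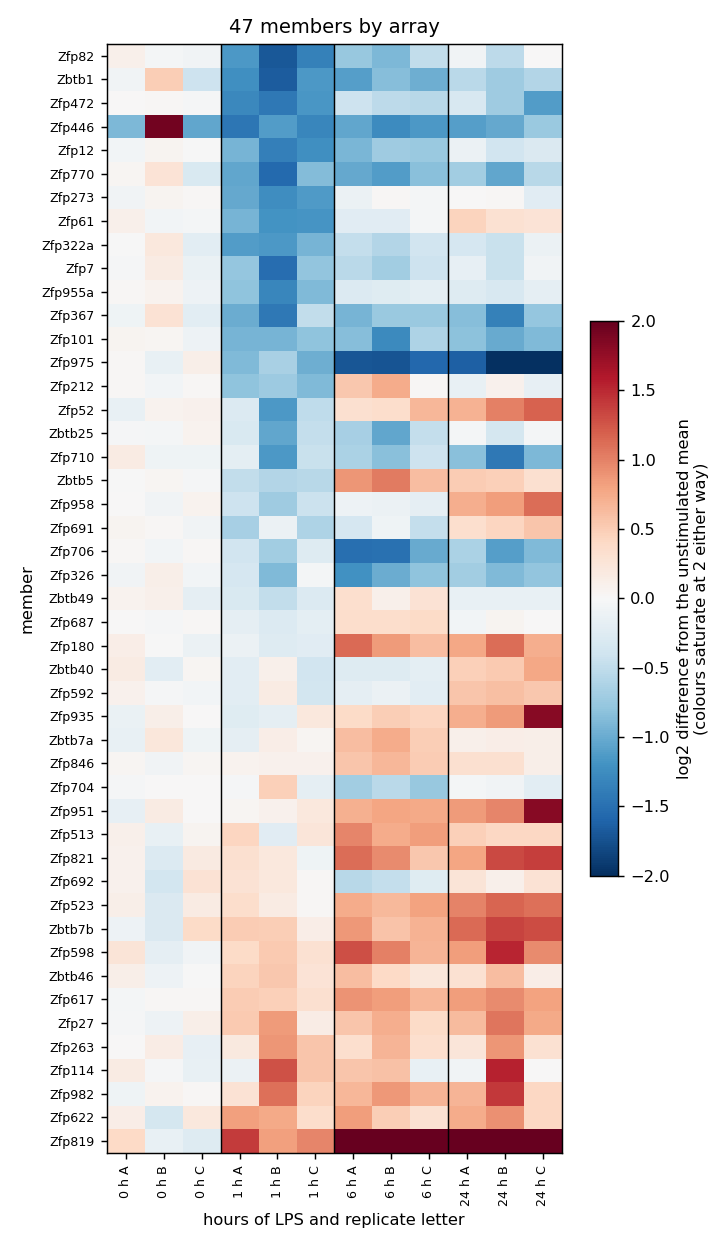
Log2 difference from the unstimulated mean for the 47 members with the largest values in any comparison, 1 row per member and 1 column per array, columns by hours of LPS and replicate letter; colours saturate at 2 either way. The rows at the top are blue at 1 h and paler at 24 h, Zfp975 deepens with time, and Zfp819 at the bottom is red on every LPS array and saturated from 6 h.

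At 6 h against unstimulated cells, 65 members were called, 29 higher and 36 lower, or 30.1% of members, where 39.6% of all genes were called, 16.1% higher and 23.6% lower. The median member changed by -0.0071, and the median gene by -0.04. The groups did not overlap for 43 members with 6 h higher, where the share over all genes was 22.8%, and for 55 with 6 h lower, where it was 31.1%. The unstimulated arrays are the same as in the comparison at 1 h, and no slide held both groups. With slide as a block 22 members were called, 12 higher and 10 lower, and with median centring 21, 16 higher and 5 lower. The counts over all genes moved as well, from 1783 higher and 2613 lower. They were 948 and 1008 with slide as a block, and 1358 and 659 with median centring. Without unstimulated arrays A or B the count was 43 or 41, and without 6 h arrays A or B it was 39 or 41.

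Zfp819 showed the highest value of the set. It encodes a KRAB zinc finger protein reported to bind Trim28 in mouse embryonic stem cells. Its log2 ratio was 1.09, 0.54 and 0.42 unstimulated, 2.08, 1.51 and 1.66 at 1 h, 4.22, 4.11 and 3.48 at 6 h and 3.72, 4.90 and 4.19 at 24 h, and every LPS array was above every unstimulated array. The change was 3.25 at 6 h (SE 0.29, adjusted p = 4.00e-06) and 3.59 at 24 h (adjusted p = 2.79e-06, limma), and the difference between 24 h and 6 h was 0.33 (adjusted p = 0.474).

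The lowest member at 6 h and 24 h was Zfp975. It stood at 0.64, 0.46 and 0.72 unstimulated, -0.27, -0.04 and -0.37 at 1 h, -1.09, -1.12 and -0.96 at 6 h and -1.03, -1.50 and -1.53 at 24 h. No LPS array overlapped the unstimulated ones. The change was -0.83 at 1 h, -1.67 at 6 h (SE 0.15, adjusted p = 3.71e-06) and -1.96 at 24 h (adjusted p = 1.69e-06). A second probe of Zfp975 changed by -1.97 at 6 h and -2.05 at 24 h.

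The promoters of Zfp819 and Zfp975 are printed because these genes moved furthest in opposite directions, and both lie on chromosome 7. The 250 bases before the RefSeq start sites are at chr7:43606919-43607168 on the plus strand for Zfp819 and at chr7:42692719-42692968 on the minus strand for Zfp975, with CCAAT and CACGTG on either strand in capitals. The Zfp819 stretch holds 17 CG pairs and the Zfp975 stretch 7, and neither holds the 11-base motif.
Zfp819: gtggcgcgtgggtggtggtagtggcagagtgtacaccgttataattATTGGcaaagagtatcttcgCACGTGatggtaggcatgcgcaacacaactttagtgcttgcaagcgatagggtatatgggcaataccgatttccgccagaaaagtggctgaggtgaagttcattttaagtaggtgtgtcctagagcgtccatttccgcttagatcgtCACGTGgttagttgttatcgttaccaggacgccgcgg
Zfp975: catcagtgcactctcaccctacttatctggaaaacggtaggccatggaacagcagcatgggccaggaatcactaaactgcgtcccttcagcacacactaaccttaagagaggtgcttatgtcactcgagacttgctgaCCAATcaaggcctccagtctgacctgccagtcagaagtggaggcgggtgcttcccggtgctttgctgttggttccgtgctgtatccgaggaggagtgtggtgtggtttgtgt

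Zfp180 and Zbtb5 rose at 6 h, and their means at 1 h stood below those of unstimulated cells. Zfp180 was at 0.36, 0.22 and 0.10 unstimulated, 0.10, -0.03 and -0.01 at 1 h, 1.37, 1.08 and 0.84 at 6 h and 1.002, 1.35 and 0.96 at 24 h, a rise of 0.87 at 6 h (adjusted p = 6.13e-04) and 0.88 at 24 h (adjusted p = 5.97e-04). Zbtb5, whose human counterpart represses the cell cycle inhibitor gene CDKN1A, was at 0.52, 0.57 and 0.51 unstimulated, 0.05, -0.05 and -0.02 at 1 h, 1.42, 1.57 and 1.15 at 6 h and 1.05, 1.01 and 0.85 at 24 h. Its 1 h arrays were the lowest of the 4 groups and its 6 h arrays the highest, and the change at 6 h was 0.85 (SE 0.12, adjusted p = 1.52e-04).

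Others that rose at 6 h were Zfp821 by 0.87, Zfp513 by 0.84, Zfp617 by 0.80 and Zfp951 by 0.75, each with an adjusted p of at most 0.0102. A second probe of Zfp951 was at 0.15 at 6 h. The call of Zfp951 was lost with slide as a block, with median centring and with local backgrounds as deposited (adjusted p = 0.427, 0.0905 and 0.069). Zfp935 and Zfp951 had similar ratios on each array, with differences of at most 0.30, and both were highest on 24 h array C at 1.85 and 1.82. At 24 h they changed by 1.13 and 1.22 (adjusted p = 0.00206 and 4.88e-04), but neither passed once slide was a block (adjusted p = 0.247 and 0.115). The other probes of Zfp935 changed by 0.11 and -0.59 at 24 h, and probes of closely related Zfp genes may share signal, so both genes are uncertain.

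The members that fell most at 6 h after Zfp975 were led by Zfp706, whose product lowers Klf4 in mouse embryonic stem cells. It stood at -0.35, -0.43 and -0.36 unstimulated, -0.76, -1.08 and -0.65 at 1 h, -1.88, -1.87 and -1.39 at 6 h and -1.02, -1.48 and -1.26 at 24 h, with the lowest mean at 6 h. The change was -1.33 at 6 h (SE 0.17, adjusted p = 5.85e-05) and -0.87 at 24 h (adjusted p = 0.00127). Zfp326, whose human counterpart is part of a complex that links splicing to elongation, was at 0.27, 0.46 and 0.29 unstimulated, 0.0036, -0.54 and 0.30 at 1 h, -0.87, -0.65 and -0.46 at 6 h and -0.36, -0.54 and -0.45 at 24 h. Its change was -0.999 at 6 h (adjusted p = 9.79e-04) and -0.79 at 24 h (adjusted p = 0.00449). Zfp770 (-0.995), Zfp101 (-0.91), Zfp367 (-0.80) and Zfp12 (-0.79) followed. Zfp101 was well above background on 2 of 3 arrays at 1 h and 1 of 3 at 6 h, and its later level was at -0.70, -1.12 and -0.47 at 6 h and -0.67, -0.86 and -0.72 at 24 h, against 0.21, 0.19 and 0.05 in unstimulated cells. The calls of Zfp12, Zfp367, Zfp770 and Zfp326 were lost with median centring, at adjusted p = 0.111, 0.216, 0.0907 and 0.092, and that of Zfp12 also with slide as a block, at 0.117. With local backgrounds as deposited the calls of Zfp12 and Zfp367 were lost (adjusted p = 0.0731 and 0.111). The call of Zfp367 was also lost without unstimulated array B and without 6 h array A (adjusted p = 0.0597 and 0.0503).

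**Figure D4:**
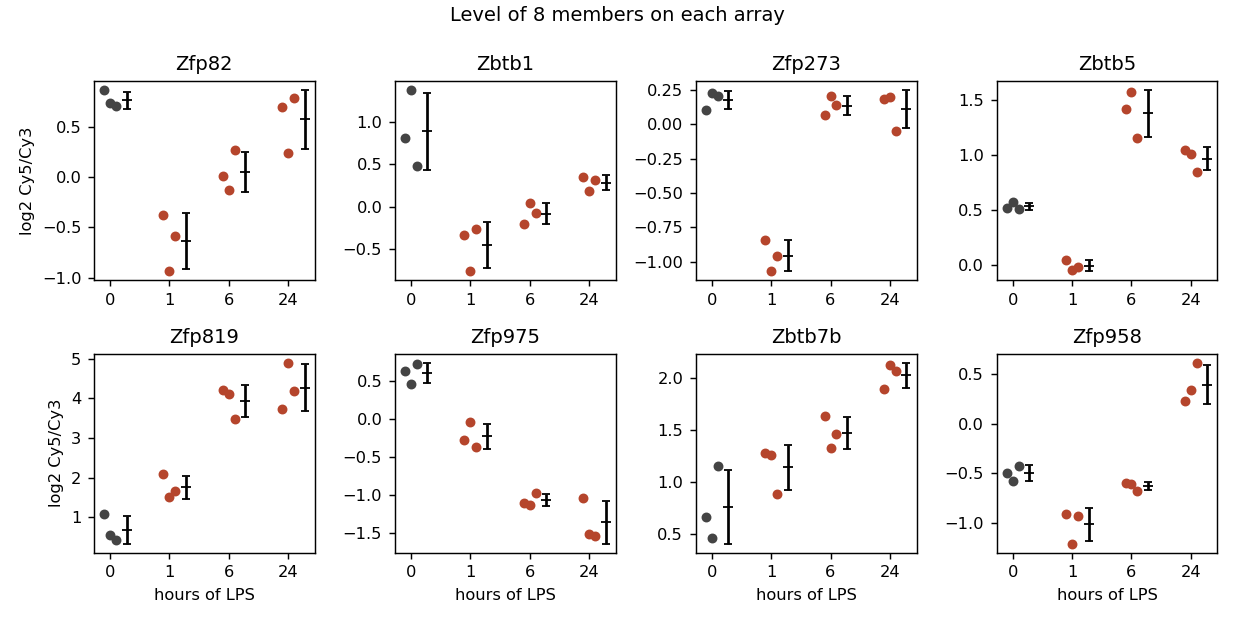
Log2 Cy5/Cy3 of 8 members on each of the 12 arrays by hours of LPS (0 is unstimulated), with the mean and SD of each group as a bar (n = 3). Zfp82, Zbtb1 and Zfp273 are lowest at 1 h, Zbtb5 is lowest at 1 h and highest at 6 h, Zfp819 and Zbtb7b are higher and Zfp975 is lower at later times, and Zfp958 is highest at 24 h.

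At 24 h against unstimulated cells, 62 members were called, 42 higher and 20 lower, or 28.7% of members, where 39.4% of all genes were called, 17.9% higher and 21.4% lower. The median member changed by 0.05 and the median gene by 0.02. The groups did not overlap for 60 members with 24 h higher, where the share over all genes was 25.5%, and for 34 with 24 h lower, where it was 26.8%. Of members with several probes, Zfp317 and Zfp935 had probes called in opposite directions at 24 h, Zfp317 at -0.44 and 0.33. Of the 216 members 7 were called higher and 2 lower by at least 2-fold, beside 605 and 727 of all 11095 genes. With slide as a block 23 members were called, 17 higher and 6 lower, with median centring 20, 11 higher and 9 lower, and without unstimulated array B 40. All genes called were 1990 higher and 2377 lower in the main fit. With slide as a block they were 848 and 913, and with median centring 832 and 1503. No slide held both groups.

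Zbtb7b had a higher mean at each later time. It stood at 0.67, 0.47 and 1.15 unstimulated, 1.27, 1.26 and 0.89 at 1 h, 1.63, 1.33 and 1.46 at 6 h and 1.89, 2.12 and 2.06 at 24 h. The 24 h arrays were above all others, and the change was 1.26 at 24 h (SE 0.17, adjusted p = 1.28e-04) and 0.71 at 6 h (adjusted p = 0.00566). Zfp598, whose human counterpart is a ubiquitin ligase that marks collided ribosomes, was at 0.06, -0.38 and -0.27 unstimulated, 0.18, 0.33 and 0.10 at 1 h, 1.09, 0.81 and 0.48 at 6 h and 0.64, 1.32 and 0.75 at 24 h. It rose by 0.99 at 6 h (adjusted p = 0.00164) and 1.10 at 24 h (adjusted p = 8.26e-04). Zfp523 rose by 1.08 at 24 h, Zfp821 by 1.17 and Zfp52 by 0.96. The call of Zfp52 was lost with median centring (adjusted p = 0.154).

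Of the members lower at 24 h, Zfp710 was at 1.29, 0.70 and 1.23 at 24 h against 2.30, 2.05 and 2.06 in unstimulated cells, with array B of slide 2 the lowest. It fell by 1.06, and by 0.63 on a second probe (adjusted p = 0.0027 for the first), a call lost with slide as a block (adjusted p = 0.0945). Zfp367 fell by 0.99 (adjusted p = 0.00367), Zfp101 by 0.90 (adjusted p = 4.32e-04) and Zfp472 by 0.72 (adjusted p = 0.00408). Zfp770 fell by 0.76 (adjusted p = 0.00838). The calls of Zfp472, Zfp770 and Zfp326 were lost with slide as a block, at adjusted p = 0.222, 0.141 and 0.14, and those of Zfp770 and Zfp326 also with median centring, at 0.0843 and 0.0687.

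The difference between 24 h and 6 h is taken between arrays that are not in the 1 h contrast, while its error and the filter on dim probes rest on all 12 arrays. In it 25 members were called, 19 higher and 6 lower, or 11.6% of members. Of all genes 18.4% were called, 9.65% higher and 8.73% lower. With median centring 3 members were called and all were lower, and over all genes 96 were higher and 831 lower. The median member changed by 0.08 and the median gene by 0.04, and with median centring both turned negative, to -0.12 and -0.18. The groups did not overlap for 50 members with 24 h higher, where the share over all genes was 19.7%, and for 22 with 24 h lower, where it was 15.3%. Of the 36 members called lower at 1 h, 4 were called higher and 2 lower between 24 h and 6 h, and of the other 180, 15 were called higher and 4 lower. Of the 14 members named in this comparison, Zfp212, which was lower at 24 h, alone kept its call with median centring. That setting moved the median gene down as well. The main adjusted p of Zfp212 was 0.0428, and its call was lost with slide as a block (adjusted p = 0.216). The call was also lost with the scanner software's processed signals (adjusted p = 0.0779), with local backgrounds as deposited and without some single arrays. Zfp958, Zfp592 and Zfp691 kept their calls with slide as a block and with local backgrounds as deposited. The calls of those 3 and of Zbtb40 passed without any 1 array. The count was 8, all higher, with slide as a block, and 16, 9, 13, 14 and 12 without unstimulated A, 6 h A, 6 h B, 24 h A and 24 h C.

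Zfp958 had the highest difference. It was at 0.23, 0.34 and 0.62 at 24 h against -0.60, -0.61 and -0.68 at 6 h, and at -0.91, -1.21 and -0.93 at 1 h and -0.50, -0.58 and -0.42 in unstimulated cells. The 24 h arrays were the highest of all groups, with a difference of 1.03 (SE 0.13, adjusted p = 2.31e-04) and 1.10 within slide 4. Zbtb40 was at 0.44, 0.48 and 0.74 at 24 h against -0.29, -0.29 and -0.23 at 6 h, a rise of 0.83 (adjusted p = 0.00227).

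Zfp592, Zfp687 and Zfp532 encode relatives whose human counterparts were found in one chromatin complex with ZMYND8, and they differed in direction. Zfp592 was at 1.41, 1.44 and 1.39 at 24 h against 0.66, 0.72 and 0.64 at 6 h, a rise of 0.74 (adjusted p = 0.00229). Zfp687 was at -0.35, -0.24 and -0.29 at 24 h against 0.06, 0.06 and 0.10 at 6 h, a difference of -0.37 (adjusted p = 0.0181). Zfp532 was well above background on no 6 h array and on 2 arrays at 24 h. Its measured ratio was 1.37-fold higher at 24 h (adjusted p = 0.0422), a size left uncertain by the dim 6 h signal. Its measured change at 6 h against unstimulated cells was -0.73 (adjusted p = 0.00129).

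Zfp691 rose by 0.74 between 24 h and 6 h (adjusted p = 0.00607) and Zfp692, which has the 11-base motif, by 0.65 (adjusted p = 0.0156). Zfp704 was at 0.38, 0.34 and 0.21 at 24 h against -0.27, -0.13 and -0.34 at 6 h, and a second probe differed by 0.69. Against unstimulated cells the 2 probes of Zfp704 disagreed. The first changed by -0.66 at 6 h and -0.11 at 24 h, and the second by -0.14 and 0.55. Zbtb25 rose by 0.59 with an adjusted p of 0.0497, close to the threshold. It lies next to Zbtb1 in gene order, and whether the array signals of these neighbours are separate was not tested.

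Lower at 24 h than at 6 h were Zfp212, Zbtb7a, Zbtb5, Zbtb49, Zfp687 and Zfp846, and their 6 h level was the highest of the 4 groups by mean. Zfp212 was at -0.35, -0.12 and -0.36 at 24 h against 0.34, 0.53 and -0.18 at 6 h, and at -1.01, -0.92 and -1.09 at 1 h. Zbtb7a, known for roles in B cell fate and in silencing of fetal globin genes, was at 1.52, 1.57 and 1.55 at 24 h against 2.05, 2.17 and 1.92 at 6 h, a difference of -0.50 (adjusted p = 0.0203). A second probe of Zbtb7a differed by -0.11. Within slide 4 the difference was -0.18 for Zfp212, -0.38 for Zbtb7a and -0.20 for Zbtb5.

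The 28 Zbtb genes and the 188 Zfp genes were also counted apart, and the difference between them was not tested. Of the Zbtb genes 0 were called higher and 6 lower at 1 h, with a median change of -0.13, and of the Zfp genes 2 higher and 30 lower, with -0.22. The share lower was 21.4% of Zbtb and 16.0% of Zfp genes. Over all genes 3.39% were lower and 4.05% higher at 1 h, with a median of 0.02. At 6 h, 6 Zbtb genes rose and 3 fell, and at 24 h 5 rose and 3 fell. Among Zfp genes 23 rose and 33 fell at 6 h (12.2% and 17.6%), and 37 rose and 17 fell at 24 h (19.7% and 9.04%). Between 24 h and 6 h, 4 Zbtb genes rose and 3 fell, and 15 Zfp genes rose and 3 fell. Over all genes 16.1% rose and 23.6% fell at 6 h, 17.9% and 21.4% at 24 h, and 9.65% and 8.73% between 24 h and 6 h.

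Members with known roles in immune cells were 15, of which 4 rose and 3 fell at 6 h and 2 rose and 3 fell at 24 h. That is 46.7% of them called at 6 h and 33.3% at 24 h, beside 39.6% and 39.4% of all genes. Zbtb46, the marker of classical dendritic cells, was at 0.77, 0.54 and 0.65 unstimulated, 1.09, 1.20 and 0.93 at 1 h, 1.27, 1.05 and 0.88 at 6 h and 0.97, 1.27 and 0.79 at 24 h. It was higher on every LPS array than in unstimulated cells, with a rise of 0.41 at 6 h (adjusted p = 0.0402) and a difference of 0.35 at 24 h that did not pass (adjusted p = 0.0746). Zbtb18, a transcriptional repressor, rose by 0.75 at 6 h (adjusted p = 0.0253), with overlap between the groups at 1 h. Zbtb17, which encodes the Myc partner Miz-1, rose by 0.49 at 24 h (adjusted p = 0.0119).

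Zfp64, reported to act in Toll-like receptor signalling in mouse macrophages, was at -0.33, -0.26 and -0.49 unstimulated, -0.68, -0.91 and -0.78 at 1 h, -1.02, -0.93 and -0.78 at 6 h and -0.82, -0.85 and -0.90 at 24 h. It fell by 0.55 at 6 h (adjusted p = 0.00204) and by 0.50 at 24 h (adjusted p = 0.00377). Zfp91, which encodes a ubiquitin ligase of the non-canonical NF-kB pathway, fell by 0.51 at 24 h (adjusted p = 0.00679), with a second probe at -0.34. Zbtb20, Zbtb24, Zbtb32, Zfp318, Zfp319 and Zfp609 passed in none of the 3 tested comparisons. Zbtb20 had no array well above background at 6 h, Zbtb32 none at 1 h and Zfp609 none at 6 h. Several of these members are named for B and T cells, and few lineage markers of those cells were above the filter.

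**Figure D5:**
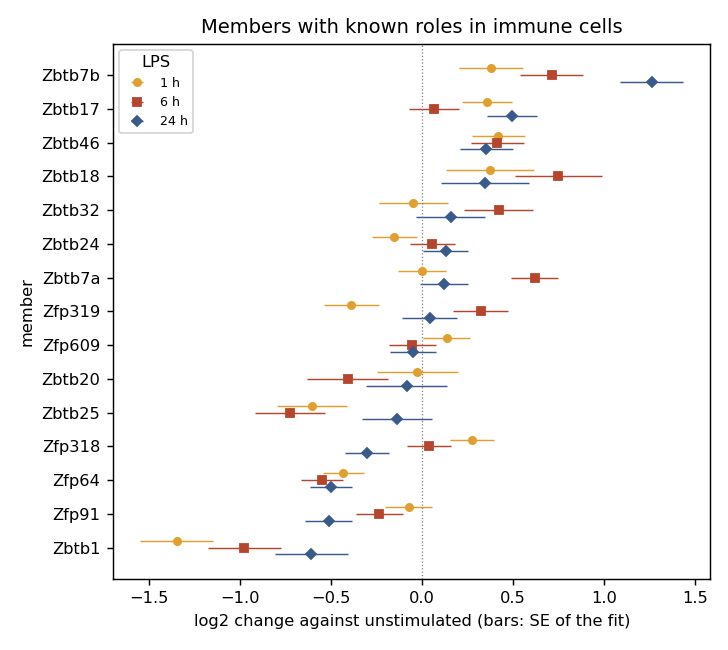
Log2 change against unstimulated cells at 1, 6 and 24 h for the 15 members with known roles in immune cells, with the SE of the fit as bars, ordered by the change at 24 h. Zbtb7b is highest at 24 h, and Zbtb1 is lowest at all 3 times.

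Of 23 members known from gene regulation in general, 2 rose and 2 fell at 6 h, and 6 rose and 2 fell at 24 h, or 17.4% and 34.8% called beside 39.6% and 39.4% of all genes. Zfp809, which brings Trim28 to retroviral DNA in mouse cells, was at -0.23, -0.25 and -0.51 unstimulated, -0.96, -1.47 and -0.65 at 1 h, -0.52, -0.35 and -0.20 at 6 h and 0.05, 0.15 and 0.52 at 24 h. It rose by 0.57 at 24 h (adjusted p = 0.0342). Its probes disagreed at the earlier times, where the changes were -0.69 at 1 h and -0.03 at 6 h for this probe and 0.03 and 0.64 for a second one, which changed by 1.06 at 24 h. Zfp131 rose by 0.52 at 6 h (adjusted p = 0.0114), and Zfp451, a SUMO ligase, by 0.46 at 24 h (adjusted p = 0.0326). Zfp410, an activator of Chd4, and Zfp384 had changes of -0.04 and 0.08 at 24 h, with adjusted p of 0.802 and 0.621.

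The 12 members whose products act on RNA or elsewhere held 2 that rose and 6 that fell at 6 h, and 2 that rose and 4 that fell at 24 h. Besides Zfp598, Zfp622 rose, by 0.54 at 6 h (adjusted p = 0.0435) and 0.69 at 24 h (adjusted p = 0.0136). Besides Zfp706 and Zfp326, Zfp106 fell by 0.62 at 6 h and Zfp385a by 0.56 (adjusted p = 0.00863 and 0.0238). The other probes of Zfp106 were at -0.66, -0.35 and -0.13 at 6 h, and the other probe of Zfp385a was at -0.11. Zfp638 and Zfp330 fell by 0.37 and 0.33 at 6 h (adjusted p = 0.0142 and 0.0384), and a second probe of Zfp330 was at -0.03. The share of this group that passed at 6 h was 66.7%, on 12 genes, beside 39.6% over all genes.

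Genes whose products work with the members were counted over whole lists. Of 16 cofactors of KRAB zinc finger proteins that could be tested, of 20 listed, 1 rose and 7 fell at 6 h, and 1 rose and 9 fell at 24 h, with medians of -0.33 and -0.50. Over all genes 23.6% fell at 6 h and 21.4% at 24 h, with medians of -0.04 and 0.02. Uhrf1, which recognises hemimethylated DNA, changed by -2.01 at 6 h (adjusted p = 4.71e-04), Cbx3, a heterochromatin protein, by -1.64 (adjusted p = 2.93e-05) and the maintenance methyltransferase gene Dnmt1 by -1.05 (adjusted p = 2.76e-04). Resf1 changed by 1.28 (adjusted p = 0.00125). Uhrf1, Dnmt1 and Hells (-0.98 at 6 h) are also expressed with DNA replication. Genes of dividing cells fell at the same times, with a median of -1.81 at 6 h and -2.31 at 24 h. A link between these falls was not tested.

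Of 14 co-repressors of BTB proteins tested, of 17 listed, 2 rose and 2 fell at 6 h, and 2 rose and 1 fell at 24 h, or 28.6% and 21.4% called beside 39.6% and 39.4% of all genes. Tbl1x, a subunit of the Ncor1 complex, changed by 1.31 at 6 h (adjusted p = 4.68e-04). Of 61 other C2H2 factors tested, of 78 listed, 8 rose and 11 fell at 6 h and 11 rose and 6 fell at 24 h, or 31.1% and 27.9% called. Klf4 changed by -2.62 at 6 h and Sp110 by 1.96 (adjusted p = 3.56e-05 and 3.28e-07). At 1 h 5 of these 61 were higher and 8 lower, with a median of -0.04. That is 8.20% higher and 13.1% lower, beside 4.05% and 3.39% of all genes and 0.926% and 16.7% of the members.

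Many members lie side by side in the genome. In gene order on the RefSeq annotation, 60 members formed 24 runs of neighbours, 15 of them pairs and the longest of 5 genes. In that longest run, Zfp180 rose at 6 h (0.87). The measured ratio of Zfp112 was 1.29-fold higher (adjusted p = 0.0486), but no unstimulated array measured this gene well above background. Zfp111, Zfp114 and Zfp235 did not pass, with changes of 0.10, 0.33 and -0.19. Zfp14, Zfp82 and Zfp566 are also neighbours, and at 1 h Zfp82 and Zfp566 had changes of -1.40 and -0.90. Zfp14 was not well above background on any 1 h array, and its measured ratio was 1.31-fold lower. Zfp108, Zfp93 and Zfp61 had -0.09, -0.41 and -1.10 at 1 h.

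Detection near the filter bears on how complete the set is. Of the 216 members, 175 were well above background on all arrays of all 4 groups, or 81.0%, beside 84.8% of all genes tested. Another 12 were kept through 1 group only, among them Zbtb32 and Zfp385b through 6 h, Zfp667 through 24 h, and Zfp78, Zfp597 and Zfp623 through unstimulated cells. Just outside were 18 genes seen on 2 of 3 arrays of a group at best, such as Zfp689, which had 2 of 3 in every group, Zbtb38, Zbtb41 and Zfp516. A further 23 had 1 array at best and 41 had none.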

How the data were processed

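RNA of 12 samples in 4 groups of 3 was measured on Agilent two-colour arrays, Cy5 for the sample and Cy3 for a Universal mouse reference. The members and all lists were chosen with earlier results of these data known. Median spot and background intensity values were deposited as the scanner software (Agilent Feature Extraction 10.7.3.1) wrote them, per the file headers; the log10 ratios and processed signals it wrote, per the file headers, were used only as checks and alternatives. The authors' deposited log2 ratios, normalized with limma per the submitters' processing notes, with centring and steps not stated, correlated with the values computed here, with a lowest r of 0.999 over the arrays.

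Here limma 3.58.1 in R 4.3.3 applied normexp (offset 50), with backgrounds marked as outliers set to the array's median, and loess (span 0.3, control spots at weight 0). Spots were averaged per probe, and a gene took its brightest kept probe; 64 members had several. Symbols came from RefSeq accessions (22951 of 41174 probes). A means model over 12 arrays (8 residual df) tested 11095 genes, and the Benjamini-Hochberg adjustment ran over all of them. Named members were the 12 lowest and 8 highest at 1 h and the 8 highest and lowest called in each other comparison; others come from role lists, the motif or neighbours. Signal over background and 3 arrays a group limit the precision. The p-values set each change against the spread between arrays within the 4 groups, moderated across genes. The script was tested on simulated data. Protein domains were not used here. Alternatives tried were other background, scaling, filter, probe and block choices, and leaving out each array.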

Additional observations from a re-analysis of the deposited data

Results flagged for a closer look

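These members differed between 24 h and 6 h of LPS in their change against unstimulated cells, by limma's test of that difference; the shared unstimulated arrays cancel in it. The difference was 1.03 for Zfp958 (0.90 at 24 h and -0.13 at 6 h), 0.83 for Zbtb40 (0.59 and -0.24), 0.74 for Zfp592 (0.57 and -0.17) and 0.74 for Zfp691 (0.44 and -0.29). It was 0.65 for Zfp692 (0.22 and -0.42), 0.59 for Zbtb25 (-0.14 and -0.72), 0.56 for Zfp704 (-0.11 and -0.66) and 0.55 for Zbtb7b (1.26 and 0.71). In the other direction it was -0.51 for Zfp212 (-0.07 and 0.43), -0.50 for Zbtb7a (0.12 and 0.62), -0.41 for Zbtb5 (0.44 and 0.85) and -0.39 for Zbtb49 (-0.14 and 0.25). It was -0.37 for Zfp687 (-0.0017 and 0.36) and -0.32 for Zfp846 (0.25 and 0.57). Adjusted p ran from 2.31e-04 for Zfp958 to 0.0497 for Zbtb25. A second probe of Zfp704 changed by 0.55 at 24 h and -0.14 at 6 h against unstimulated cells.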

How the results depend on the processing

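The number of members called depended on scaling, background and slide. With median centring it was 13 at 1 h, 21 at 6 h, 20 at 24 h and 3 between 24 h and 6 h (main values 38, 65, 62 and 25). With slide as a block it was 14, 22, 23 and 8 in the same order. With local backgrounds as deposited it was 19 at 1 h, 23 at 6 h and 7 between 24 h and 6 h. The main counts over all genes were 825, 4396, 4367 and 2040 in that first order. With median centring those became 225, 2017, 2335 and 927, and with slide as a block 225, 1956, 1761 and 868. With local backgrounds as deposited 243 genes were called at 1 h, 2438 at 6 h and 798 between 24 h and 6 h. Median centring moved the median of all genes from 0.02 to -0.12 at 1 h. Leaving out 1 array at a time gave 21 to 38 members at 1 h, 39 to 68 at 6 h, 40 to 65 at 24 h and 9 to 31 between 24 h and 6 h. The cause was not tested. The authors' log2 ratios, processed signals, Cy5 alone, both other filters and the mean of probes kept each count within 1.5 times. Processed signals moved the members' median at 1 h to -0.39, against -0.21, and moved 10 of the 20 named changes at 1 h by more than the spread between replicates. Among the members named in each comparison no call reversed. Same-letter arrays had a median correlation of deviations of 0.11, over 0.1 in 9 of 18 pairs, and different letters -0.01, so the letters are not shown to pair the samples in the tested comparisons. Same-letter pairs ran from 0.21 to 0.55 between 6 h and 1 h and from 0.21 to 0.58 between 24 h and 1 h, but from -0.12 to 0.41 between 24 h and 6 h and from -0.21 to 0.17 with unstimulated arrays. With the replicate block 48, 68, 68 and 32 members were called, and 1 of the 14 named calls between 24 h and 6 h was lost (Zfp846, adjusted p = 0.052).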
